A study of Mus musculus with 12 samples.

Results

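Sult1e1, the steroid receptors Nr3c1 and Esr1, the steroid enzyme Hsd11b1 and the glucocorticoid-induced genes Fkbp5, Tsc22d3, Per1, Sgk1 and Zbtb16 were followed across the cell classes of mouse white adipose tissue. They are 9 of the 31053 genes in the files. Sult1e1 was selected on its measured shift in preadipocytes of epididymal white adipose tissue (eWAT), so its eWAT levels are given as a description with no test, and the other 8 genes were listed by name.

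The data were single-cell RNA sequencing of the stromal vascular fraction, the cells left after collagenase digestion and removal of floating adipocytes, in 12 libraries. The 6 eWAT and 6 inguinal (iWAT) libraries each held 2 mice of 3 groups, all male and 12 weeks old. WT-Veh were C57BL/6J mice given methylcellulose vehicle, ob/ob-Veh were Lepob/Lepob mice given the same vehicle, and ob/ob-Rosi were Lepob/Lepob mice given the PPARγ agonist rosiglitazone at 30 mg/kg. Gavage was in the morning and evening for 3 days. Lepob/Lepob mice lack working leptin in the whole body from birth, and no WT mice given rosiglitazone were among these libraries, so the drug was compared only within the mutant. Small biopsies from several places of a depot made up a sample, and the labels do not say whether a mouse gave both depots.

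Steroid hormones act through receptors that enter the nucleus and bind DNA, and a cell sets its own exposure with enzymes that make, remove or regenerate the hormone. SULT1E1 attaches sulfate to estrogens, which then no longer bind their receptor. HSD11B1 regenerates active glucocorticoid from its inactive keto form and is a known enzyme of adipose stromal cells and adipocytes. NR3C1 is the glucocorticoid receptor and ESR1 the estrogen receptor alpha. FKBP5 is a chaperone that lowers the receptor's affinity for hormone, TSC22D3 (GILZ) is an anti-inflammatory leucine zipper protein, PER1 is a clock repressor, SGK1 is a kinase that regulates ion transport and cell survival, and ZBTB16 (PLZF) is a zinc finger transcription factor. Transcription of these last genes rises in many tissues when the glucocorticoid receptor is bound by hormone. Glucocorticoid also drives adipocyte differentiation in culture.

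After filtering, a library held 6472 to 17500 cells with a median of 1132 to 4961 UMIs (unique transcript tags) per cell, from 19593940 to 66315901 UMIs in all. The Lep transcript does not check the genotype directly, since the mutation is a point mutation, and it lay between 3.59 and 361 UMIs per 100 Adipoq UMIs, highest in the libraries labelled ob/ob-Rosi. It was lowest in eWAT ob/ob-Veh, at 3.59 and 10.3 against 30.5 and 79.3 in eWAT WT-Veh. In iWAT it was 33.3 and 14.0 in ob/ob-Veh, from 4 and 8 Lep UMIs, and 20.5 and 31.4 in WT-Veh. Groups therefore rest on the labels. The eWAT matrices came without the upper UMI filter that the iWAT matrices already carried, so levels are compared within a depot. Lipid-associated macrophage-like cells numbered 23 and 29 in the eWAT ob/ob-Veh libraries against 893 to 2441 in the other eWAT libraries. Of the cells in a library, 2.56 to 4.08% shared a barcode with a cell of another library. The iWAT WT-Veh replicate 1 library stood apart, with 7023 cells in a cluster that could not be named.

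Cells were clustered without the 9 genes and named from marker genes. Adipocyte progenitor cells (APCs) were divided into progenitor-like clusters, with 7 or 8 of 8 progenitor markers detected (Pi16, Dpp4 and others), and preadipocyte-like clusters, with 7 to 11 of 12 preadipocyte markers (Icam1, Cd36, Pparg, Fabp4 and others). A cluster took the name of the list with the higher mean level, and a cluster in which the lists lay within 0.5 on the log2 scale stayed unnamed between them. That left unnamed 1 eWAT cluster, cluster 2, led by the immediate early and cytokine response genes Socs3, Gadd45g, Atf3 and Zfp36. It held 28.1 and 23.3% of the APCs of eWAT ob/ob-Veh (1152 and 703 cells) and 0.0268 to 0.681% of those of the other eWAT libraries. The depots were clustered separately, and no iWAT cluster stayed between the lists. Clusters of mixed lineage held a further 1.03 to 5.38% of eWAT and 0.66 to 3.02% of iWAT APCs.

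Groups lay in different clusters within a class. In eWAT, ob/ob-Veh cells filled progenitor-like clusters 7 and 8 and preadipocyte-like clusters 4 and 5, whereas WT-Veh and ob/ob-Rosi cells filled progenitor-like cluster 6 and preadipocyte-like clusters 0, 1, 3 and 10. In iWAT, ob/ob-Veh cells filled progenitor-like clusters 1, 3 and 12 and preadipocyte-like cluster 5, and the other groups progenitor-like clusters 0, 4, 7 and 11 and preadipocyte-like clusters 2, 6, 8 and 9. Perivascular macrophage-like (PVM-like) cells were of cluster 1 in eWAT WT-Veh and ob/ob-Rosi, of cluster 5 in eWAT ob/ob-Veh, of cluster 3 in iWAT ob/ob-Veh and of clusters 2, 8 and 10 in the other iWAT groups. Endothelial-like (EC-like) cells, the last class tested, came from clusters 9 and 18 in eWAT and from clusters 4 and 22, with 9 and 19 mostly in WT-Veh, in iWAT. Markers of another cell type outnumbered those of the own class among the 10 leading genes of 4 clusters, through Trem2 in eWAT preadipocyte-like cluster 0, Mrc1 and F13a1 in iWAT cluster 1, Gas6 in iWAT cluster 5 and a lymphatic gene in the small iWAT cluster 13, so values are also given by cluster number. A library held 200 to 1521 progenitor-like and 1369 to 3133 preadipocyte-like cells in eWAT, and in iWAT 926 to 3513 and 440 to 3114, except iWAT WT-Veh replicate 1 with 131 and 158, the least precise of the iWAT values. With 5 other random starts of the clustering, 79.1 to 99.8% of the cells of a named APC class kept its name. The eWAT ob/ob-Veh cells of cluster 2 were named preadipocyte-like for 77.1 to 90.4% of them in 4 of these starts and stayed between the lists for 85.6% in the other, so calls in eWAT APCs are also given with progenitor-like, preadipocyte-like and between cells pooled (all APCs together).

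A level is given as CPM, the UMIs of a gene per 1000000 UMIs of all cells of that class in that library, with replicates 1 and 2 in that order. A fold change is the log2 fold change of edgeR's quasi-likelihood test on UMI counts summed per library and class, with its standard error (SE) and a Benjamini-Hochberg adjusted p over all genes of the class. Calls needed a change of at least 1.1-fold whose adjusted p did not exceed 0.05. With 2 mice in a group an exact permutation test of a single gene cannot go below p = 0.33, so each p rests on the spread shared over the genes and the 6 libraries of a depot.

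All 9 genes were found in all 12 libraries, by identifier where a library's gene list gave one and otherwise by symbol. On GRCm38, the mm10 build, Sult1e1 lies at chr5:87575969-87591594 on the minus strand, Hsd11b1 at chr1:193221634-193264075 on the minus strand and Esr1 at chr10:4611593-5005614 on the plus strand. Fkbp5 lies at chr17:28399094-28517527 and Tsc22d3 at chrX:140539528-140600659, both on the minus strand. Per1 lies at chr11:69095217-69109960 and Sgk1 at chr10:21882184-21999903, both on the plus strand, and Zbtb16 at chr9:48654297-48836222 on the minus strand. All are protein-coding genes.

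The DNA element that the glucocorticoid receptor binds as a dimer has the arms AGAACA and TGTTCT around a spacer of 3 bases and is shown because it is the sequence through which the receptor acts on such targets. RefSeq (GRCm38.p6) start sites gave 16 windows, from 250 bases before to 50 bases after the start, for 7 of the 9 genes. The whole element stood in 1 of them, in 1 of 6 Sgk1 windows, at 189 to 175 bases before the start site, at chr10:21993695-21993721 on the plus strand with its flanks, the element in capitals:
Sgk1 promoter: gcggaaAGAACAGAATGTTCTcggaga
Of all 32851 windows of this length, 3 (0.00913%) held the whole element, read on both strands. The arm AGAACA alone, which the whole element contains, stood in 3 Sgk1 windows and 1 Tsc22d3 window, and in 19.0% of all windows. A match describes the sequence and not binding, and such elements also lie far from start sites.

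Sult1e1 had the widest range of the 9 genes. In eWAT preadipocyte-like cells it stood at 40.3 and 16.2 CPM in WT-Veh, 2095 and 1609.6 CPM in ob/ob-Veh, and 52.1 and 16.3 CPM in ob/ob-Rosi. The ob/ob-Veh mean of 1852 CPM was 65.5 times the WT-Veh mean of 28.3 CPM, a difference of 6.11 on the log2(CPM + 1) scale, and the ob/ob-Rosi mean was 34.2 CPM, lower than that of ob/ob-Veh by a log2(CPM + 1) difference of −5.92. WT-Veh and ob/ob-Rosi overlapped, and both ob/ob-Veh libraries lay far above them.

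The order was the same with the APCs pooled. With progenitor-like, preadipocyte-like and between cells of eWAT pooled, Sult1e1 stood at 43.3 and 26.5 CPM in WT-Veh, 1299.8 and 1222 CPM in ob/ob-Veh, and 56.7 and 22.8 CPM in ob/ob-Rosi. The cells of the between cluster alone held 1667 and 1222 CPM in ob/ob-Veh.

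The same order held in the share of cells. Of eWAT preadipocyte-like cells, 80.7% (95% exact binomial interval 78.5 to 82.7%) and 77.0% (74.9 to 79.0%) held at least 1 Sult1e1 UMI in ob/ob-Veh, against 4.79 and 3.80% in WT-Veh and 8.32 and 4.39% in ob/ob-Rosi. A positive cell held a median of 7 and 5 UMIs in the ob/ob-Veh libraries and 1 in the others. Depth differed between libraries, since the median cell held 1307 and 3833 UMIs in WT-Veh, 3905 and 3568 in ob/ob-Veh, and 2284.5 and 4744 in ob/ob-Rosi. With every cell thinned to 700 UMIs, the share was 54.7 and 46.3% in ob/ob-Veh and between 1.07 and 2.89% in the other 4 libraries. Intervals on shares and limits on counts of 0 cover counting error only.

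eWAT progenitor-like cells, the earlier stage of the lineage, gave 64.8 and 75.2 CPM in WT-Veh, 576 and 509 CPM in ob/ob-Veh, and 76.7 and 126 CPM in ob/ob-Rosi, a ratio of means of 7.75 between ob/ob-Veh and WT-Veh. At least 1 UMI was found in 74.5 and 74.4% of these cells in ob/ob-Veh, 8.48 and 13.5% in WT-Veh, and 13.6 and 22.0% in ob/ob-Rosi. The progenitor-like level was the lower in both ob/ob-Veh libraries and the higher in the other 4.

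**Figure D1:**
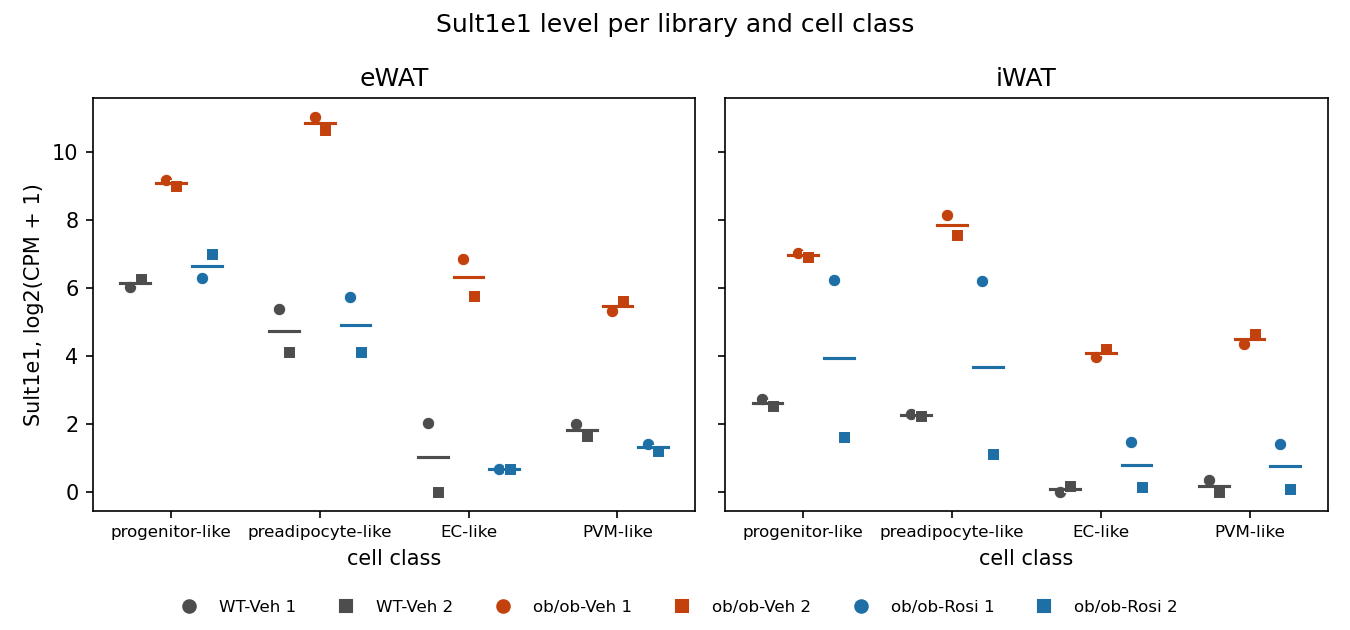
Sult1e1 in CPM on a log2(CPM + 1) axis, for each cell class and library of eWAT and iWAT. Circles are replicate 1, squares replicate 2 and bars group means. The ob/ob-Veh libraries lie above the WT-Veh libraries in the progenitor-like, preadipocyte-like, EC-like and PVM-like classes of both depots, and iWAT ob/ob-Rosi replicate 1 lies above replicate 2.

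In the eWAT clusters that held several groups, Sult1e1 was highest in the ob/ob-Veh cells. In progenitor-like cluster 6 the level was 632 CPM in the 46 cells of ob/ob-Veh replicate 2, 65.8 and 76.7 CPM in WT-Veh, and 74.8 and 123 CPM in ob/ob-Rosi. Cluster 9, of mixed lineage, gave 1548 and 911 CPM in ob/ob-Veh and 11.3 to 32.3 CPM in the other libraries. Among clusters made almost wholly of ob/ob-Veh cells, preadipocyte-like cluster 4 was highest at 2373 and 1804 CPM, cluster 5 held 1138 and 1156 CPM, and progenitor-like clusters 7 and 8 held 639 and 511 CPM and 454 and 491 CPM.

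The preadipocyte-like clusters of WT-Veh and ob/ob-Rosi lay close together. Cluster 0, with macrophage genes among its leading genes, gave 40.9 and 20.1 CPM in WT-Veh and 53.0 and 15.01 CPM in ob/ob-Rosi. Cluster 1, without them, gave 40.2 and 17.8 CPM and 47.0 and 18.4 CPM. Cluster 3 gave 41.8 and 13.6 CPM and 70.0 and 16.7 CPM, so no cluster of these groups came near the ob/ob-Veh clusters.

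**Figure D2:**
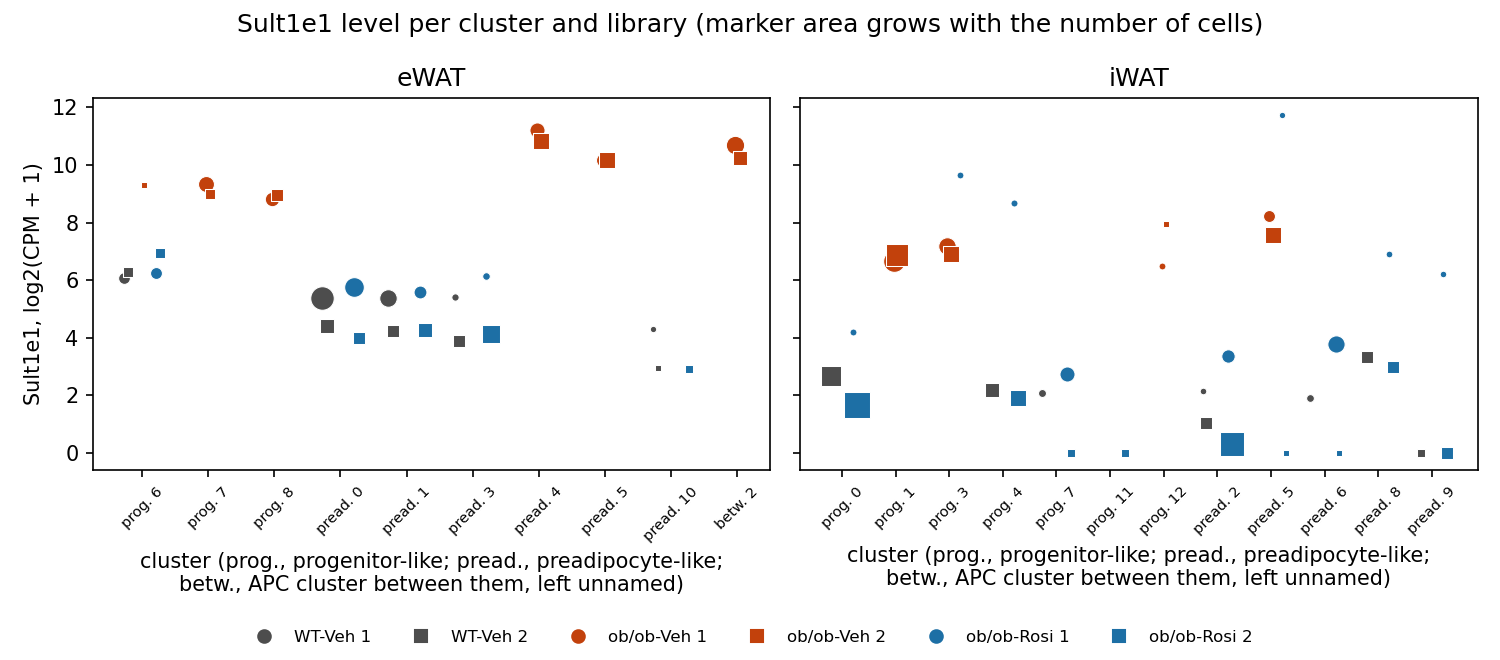
Sult1e1 in CPM on a log2(CPM + 1) axis, for each APC cluster and library with at least 20 cells, clusters of mixed lineage left out. Circles are replicate 1, squares replicate 2, and the marker area grows with the number of cells. Every eWAT ob/ob-Veh point lies at 454 CPM or above and every other eWAT point at 123 CPM or under, and in iWAT cluster 5 the highest point is ob/ob-Rosi replicate 1 at 3407 CPM.

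Other RNA differed between the same groups in eWAT. The sum over 10 macrophage genes in preadipocyte-like cells was 1872 to 2591 CPM in WT-Veh, 339 to 659 CPM in ob/ob-Veh and 1972 to 2193 CPM in ob/ob-Rosi, and none of the 10 was at 0 in any library. The dissociation response was read from 16 immediate early, cytokine response and heat shock genes that are known to rise when tissue is digested. Their sum in progenitor-like cells was 5750 to 6411 CPM in WT-Veh, 17385 to 19346 CPM in ob/ob-Veh and 3501 to 6811 CPM in ob/ob-Rosi, and in preadipocyte-like cells 9438 to 11802 CPM, 5545 to 8063 CPM and 7122 to 10362 CPM, so the order of the groups was not the same in the classes. With all APCs together it was 8985 and 10867 CPM in WT-Veh, 18419 and 16044 CPM in ob/ob-Veh, and 9905 and 6906 CPM in ob/ob-Rosi. By cluster it was 27856 and 28167 CPM in the between cluster of ob/ob-Veh and 5282 and 8596 CPM in cluster 4, where Sult1e1 was highest. The lower preadipocyte-like sums of ob/ob-Veh thus depend on leaving out the between cluster, which 4 of the 5 other starts named mostly preadipocyte-like. The part of the macrophage and dissociation sums in the Sult1e1 levels was not tested.

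Sult1e1 UMIs were also found in eWAT cells of other lineages. eWAT EC-like cells held 3.096 and 0 CPM in WT-Veh, 116 and 53.4 CPM in ob/ob-Veh, and 0.596 and 0.5999 CPM in ob/ob-Rosi. The 0 was of 567 cells, where 3 UMIs would be 1.03 CPM. With the UMIs of a group's libraries pooled, the ratio of ob/ob-Veh to WT-Veh CPM was 92.8 (exact counting interval 31.5 to 452). Such an interval leaves out the spread between mice. eWAT PVM-like cells held 3.00 and 2.11 CPM, 38.9 and 47.6 CPM, and 1.69 and 1.30 CPM in the same order. Natural killer and T cell-like cells held 4.45 and 0.562 CPM, 144 and 189.9 CPM, and 3.18 and 1.09 CPM. In each of these classes, too, both ob/ob-Veh libraries lay above the other 4.

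These values were set beside RNA that belongs to APCs. In a given class and library, the Sult1e1 level was taken as a percent of the preadipocyte-like level of that library, and so were the levels of 8 APC markers (Pdgfra, Dcn, Col1a1 and others). In eWAT ob/ob-Veh EC-like cells Sult1e1 stood at 5.52 and 3.32%, and the median APC marker at 6.11 and 5.19%. PVM-like cells held 1.86 and 2.96% against 2.20 and 2.43%, and natural killer and T cell-like cells 6.90 and 11.8% against 9.23 and 8.99%. In iWAT ob/ob-Veh, Sult1e1 in PVM-like cells stood at 6.89 and 13.03% against 5.70 and 5.21%, in EC-like cells at 5.25 and 9.47% against 6.09 and 5.05%, and in natural killer and T cell-like cells at 14.6 and 20.7% against 10.2 and 10.6%. The count took the named classes outside APCs with at least 20 cells in every library of a depot, B cell-like cells left out. Sult1e1 in ob/ob-Veh lay above the highest of the 8 markers in 2 of 14 class-by-library values in eWAT and 6 of 12 in iWAT, and under the lowest in 6 and 3. The 6 in iWAT were PVM-like cells (highest marker 6.82 and 10.7%) and natural killer and T cell-like cells of both libraries, and 2 further classes in replicate 2. The 14 eWAT values include mesothelial-like cells, whose median APC marker stood at 56.7 and 51.6%. Sult1e1 lay under the lowest marker there in both libraries. The source of Sult1e1 RNA outside APCs was not tested.

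The rule that chose Sult1e1 names eWAT values only, but iWAT results were also known when the genes and tests were chosen, so its iWAT tests are not independent support. In iWAT preadipocyte-like cells it stood at 3.92 and 3.71 CPM in WT-Veh, 280.4 and 185 CPM in ob/ob-Veh, and 73.3 and 1.16 CPM in ob/ob-Rosi. Both ob/ob-Veh libraries lay above every other iWAT library, and the ob/ob-Rosi libraries lay far from each other. The log2 fold change of ob/ob-Veh against WT-Veh was 5.92 (SE 1.54, adjusted p = 0.112 by edgeR), which was not called, and that of ob/ob-Rosi against ob/ob-Veh was −2.55 (SE 1.14, adjusted p = 0.232).

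The wide ob/ob-Rosi pair enters the spread of all 3 groups. Without ob/ob-Rosi replicate 1 the log2 fold change of ob/ob-Veh against WT-Veh was 5.91 with an adjusted p of 0.00110, and without replicate 2 it was 5.91 with an adjusted p of 0.00111. Leaving out a WT-Veh or ob/ob-Veh library gave 5.57 to 6.26 with an adjusted p of 0.0684 to 0.558, so the call followed the ob/ob-Rosi pair.

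In iWAT progenitor-like cells the levels were 5.61 and 4.81 CPM in WT-Veh, 129 and 118 CPM in ob/ob-Veh, and 73.6 and 2.10 CPM in ob/ob-Rosi. It differed by a log2 fold change of 4.50 (SE 1.29, adjusted p = 0.148) for ob/ob-Veh against WT-Veh and −1.62 (SE 1.00, adjusted p = 0.361) for ob/ob-Rosi against ob/ob-Veh. Here too ob/ob-Veh lay above all other libraries and the ob/ob-Rosi mice lay far apart.

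Most Sult1e1 UMIs of iWAT ob/ob-Rosi replicate 1 came from a small group of cells. Of its 1677 preadipocyte-like cells, 23 lay in cluster 5, the cluster that otherwise held ob/ob-Veh cells, and these 23 carried 452 of 549 Sult1e1 UMIs (82.3%) at 3407 CPM. The ob/ob-Veh cells of the same cluster, which has Sult1e1 among its 10 leading genes although the gene was kept out of the clustering, stood at 296 and 191 CPM. Without the 23 cells the library's level was 13.2 CPM in place of 73.3 CPM.

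Of its 926 progenitor-like cells, 69 lay in ob/ob-Veh clusters and carried 263 of 406 UMIs (64.8%), and the level was 27.8 CPM without them in place of 73.6 CPM. The 50 of these cells in cluster 3 held 801 CPM, where ob/ob-Veh held 143 and 118 CPM. Another 59 progenitor-like cells, in cluster 4, held 412 CPM against 2.75 CPM in ob/ob-Rosi replicate 2 and 3.50 CPM in WT-Veh replicate 2. Of the 92 APCs in ob/ob-Veh clusters, 16 (17.4%) shared a barcode with eWAT ob/ob-Veh replicate 1, against 23 of 2511 (0.916%) of the other APCs of this library. With all cells that shared a barcode left out, the preadipocyte-like level was 65.8 CPM. Whether these cells belong to the mouse of this library was not tested.

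Sult1e1 was also read in iWAT cells outside APCs. PVM-like cells held 0.290 and 0 CPM in WT-Veh, 19.3 and 24.2 CPM in ob/ob-Veh, and 1.67 and 0.0658 CPM in ob/ob-Rosi. The fitted log2 fold change was 7.97 (SE 1.33, adjusted p = 0.017) for ob/ob-Veh against WT-Veh and −4.61 (SE 0.89, adjusted p = 0.0245) for ob/ob-Rosi against ob/ob-Veh. Both passed the test, but the gene passed the filter on low counts only with the ob/ob-Veh libraries in the class, so some difference between the groups was fixed by the filter and the calls are given as a description. The WT-Veh libraries held 1 UMI between them, so the fitted value depends on the prior count. With the UMIs of a group's libraries pooled, the ratio of CPM was 366 with an exact counting interval of 65.0 to 14517. The first call was lost without ob/ob-Veh replicate 1 (adjusted p = 0.153) or replicate 2 (adjusted p = 0.119). The other was lost without ob/ob-Veh replicate 1 (adjusted p = 0.227) or replicate 2 (adjusted p = 0.131), without ob/ob-Rosi replicate 2 (adjusted p = 0.0724), and in DESeq2 (adjusted p = 0.0825).

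EC-like cells of iWAT held 0 and 0.134 CPM in WT-Veh, 14.7 and 17.6 CPM in ob/ob-Veh, and 1.77 and 0.105 CPM in ob/ob-Rosi. The fitted log2 fold change of ob/ob-Veh against WT-Veh was 7.09 (SE 1.39, adjusted p = 0.0663), from 1 UMI in WT-Veh and with the same dependence on the filter. The ratio of CPM, with the libraries of a group pooled, was 214 with a counting interval of 36.0 to 8685. The percents of APC markers in both classes are given above. Natural killer and T cell-like cells of iWAT held 0 and 0.207 CPM, 40.8 and 38.4 CPM, and 4.97 and 0 CPM in the same order of groups. B cell-like cells of iWAT had 0 to 2 UMIs a library, so their levels are too imprecise to compare.

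Hsd11b1, the enzyme that regenerates glucocorticoid, was highest in preadipocyte-like cells in both depots. Over the 6 libraries its lowest, median and highest levels there were 176, 339 and 370.1 CPM in eWAT and 94.9, 326 and 576 CPM in iWAT. The next class in eWAT, progenitor-like, reached 50.9, 117 and 267 CPM and overlapped. The next in iWAT, natural killer and T cell-like, reached 17.5, 75.7 and 90.4 CPM and did not overlap. iWAT progenitor-like cells reached 38.9, 74.8 and 228 CPM.

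In eWAT progenitor-like cells Hsd11b1 fell in ob/ob-Veh and rose with rosiglitazone. The levels were 106 and 205 CPM in WT-Veh, 50.9 and 69.5 CPM in ob/ob-Veh, and 127 and 267 CPM in ob/ob-Rosi, with ob/ob-Veh under all others. The log2 fold change was −1.39 (SE 0.37, adjusted p = 0.0481) for ob/ob-Veh against WT-Veh and 1.73 (SE 0.38, adjusted p = 0.0156) for ob/ob-Rosi against ob/ob-Veh. The first call was lost without WT-Veh replicate 2 (−0.88, adjusted p = 0.435) or ob/ob-Veh replicate 1 (−1.26, adjusted p = 0.230), and the other without ob/ob-Veh replicate 1 (1.59, adjusted p = 0.0618) or without replicate 2 of ob/ob-Rosi (1.11, adjusted p = 0.150).

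Both calls also depended on which cells were named progenitor-like. With all eWAT APCs together the log2 fold changes were −0.28 (adjusted p = 0.676) and 0.59 (adjusted p = 0.330). Neither call was made with APC clusters named relative to each other or cut at resolution 0.3 or 1, or with the 9 genes kept in the clustering (−0.19 to −0.74, adjusted p = 0.167 to 0.851, and 0.10 to 0.58, adjusted p = 0.469 to 0.932), and the first was also lost at Leiden resolution 2 (−1.09, adjusted p = 0.128) and under scaling by library size alone (−1.39, adjusted p = 0.0538). By cluster, the 46 ob/ob-Veh replicate 2 cells of progenitor-like cluster 6 gave 123 CPM, within the range of WT-Veh (108 and 208 CPM) and under ob/ob-Rosi (134 and 269 CPM) in that cluster. The progenitor-like clusters of ob/ob-Veh gave 58.8 and 85.3 CPM (cluster 7) and 35.9 and 48.0 CPM (cluster 8). The dissociation sums of clusters 7 and 8 were 24814 and 26993 CPM and 9203 and 9821 CPM, against 3395 to 6733 CPM in cluster 6, and their part in the difference was not tested.

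In eWAT preadipocyte-like cells Hsd11b1 stood at 176 and 346 CPM in WT-Veh, 331 and 370.1 CPM in ob/ob-Veh, and 270 and 363 CPM in ob/ob-Rosi. The groups overlapped, and the log2 fold changes were 0.30 (adjusted p = 0.588) and 0.00 (adjusted p = 0.995). Within ob/ob-Veh, cluster 4 held 381 and 417 CPM and cluster 5 150 and 247 CPM, so the clusters of this class lay further apart than its groups.

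In iWAT progenitor-like cells Hsd11b1 fell in ob/ob-Veh too. The levels were 228 and 165 CPM in WT-Veh, 38.9 and 73.2 CPM in ob/ob-Veh, and 62.5 and 76.5 CPM in ob/ob-Rosi. Both WT-Veh libraries lay above all others, and the ob/ob-Rosi libraries overlapped those of ob/ob-Veh. The log2 fold change of ob/ob-Veh against WT-Veh was −1.91 (SE 0.32, adjusted p = 0.0305), and that of ob/ob-Rosi against ob/ob-Veh was 0.48 (adjusted p = 0.383). The call was lost without ob/ob-Veh replicate 1 (adjusted p = 0.388) or replicate 2 (adjusted p = 0.101), and with all APCs together the log2 fold change was −1.91 with an adjusted p of 0.0902.

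By cluster, iWAT WT-Veh replicate 2 gave 135 CPM in cluster 0 and 241 CPM in cluster 4, and WT-Veh replicate 1 gave 194 CPM in cluster 7. In the same clusters ob/ob-Rosi gave 60.2 and 47.4 CPM, 134 and 104 CPM, and 50.9 and 52.0 CPM. In each of these clusters both ob/ob-Rosi libraries lay under the WT-Veh library present there. The ob/ob-Veh libraries gave 35.4 and 77.0 CPM in cluster 1, which has macrophage genes among its leading genes, and 41.1 and 72.9 CPM in cluster 3, which does not.

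In iWAT preadipocyte-like cells Hsd11b1 stood at 328 and 461 CPM in WT-Veh, 94.9 and 207 CPM in ob/ob-Veh, and 324 and 576 CPM in ob/ob-Rosi. The ob/ob-Veh libraries lay under all others. Neither the log2 fold change of −1.45 (SE 0.41, adjusted p = 0.128) against WT-Veh nor that of 1.64 (SE 0.41, adjusted p = 0.0705) for ob/ob-Rosi against ob/ob-Veh was called.

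Hsd11b1 was low in PVM-like cells. eWAT PVM-like cells held 12.4 and 9.98 CPM in WT-Veh, 4.29 and 5.66 CPM in ob/ob-Veh, and 10.95 and 14.3 CPM in ob/ob-Rosi. The higher level in ob/ob-Rosi than in ob/ob-Veh was called, with a log2 fold change of 1.47 (SE 0.32, adjusted p = 0.0441), and the difference of −1.27 (SE 0.32, adjusted p = 0.058) of ob/ob-Veh against WT-Veh was not. As a percent of the same library's preadipocyte-like level, these were 7.03 and 2.88%, 1.30 and 1.53%, and 4.06 and 3.95%, where the median APC marker stood at 3.88 and 1.69%, 2.20 and 2.43%, and 2.21 and 1.78%. The call was lost with any 1 library but ob/ob-Rosi replicate 1 left out (adjusted p = 0.0721 to 0.273), under scaling by library size alone (adjusted p = 0.0608) and without cells that shared a barcode (adjusted p = 0.0505). It was also lost with cells thinned to 700 UMIs (0.99, adjusted p = 0.303), and at a finer clustering (Leiden resolution 2) it was −0.037 (adjusted p = 0.951).

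Nr3c1, the glucocorticoid receptor, was found in every class, with class medians from 67.8 CPM in eWAT dendritic cell-like cells to 241 CPM in iWAT EC-like cells. EC-like cells were highest, with a median over libraries of 222 CPM in eWAT and 241 CPM in iWAT, and overlapped the next class, natural killer and T cell-like cells (195 and 208 CPM). eWAT preadipocyte-like cells held 105 and 135 CPM in WT-Veh, 161 and 164 CPM in ob/ob-Veh, and 143 and 95.8 CPM in ob/ob-Rosi. iWAT progenitor-like cells held 144 and 158 CPM, 182 and 191 CPM, and 155 and 160 CPM. Both ob/ob-Veh libraries lay above both WT-Veh libraries in all 4 classes of both depots, with log2 fold changes of 0.19 to 0.54, and none passed the test (adjusted p = 0.198 to 0.729). The classes of a depot share its libraries, so these orders are not separate observations. How many other genes show the order was not counted.

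Esr1, whose ligands SULT1E1 inactivates, was highest in iWAT preadipocyte-like cells and, in eWAT, in mesothelial-like cells, the cells that cover the depot, overlapping the next class in each. The mesothelial-like level was 22.9 and 37.3 CPM in WT-Veh, 71.3 and 69.8 CPM in ob/ob-Veh, and 44.2 and 45.2 CPM in ob/ob-Rosi. The groups did not overlap, and this class was not tested.

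In iWAT preadipocyte-like cells Esr1 fell with rosiglitazone. The levels were 53.6 and 64.9 CPM in WT-Veh, 102 and 97.6 CPM in ob/ob-Veh, and 35.7 and 19.5 CPM in ob/ob-Rosi, and the ob/ob-Rosi libraries lay under all others. The log2 fold change against ob/ob-Veh was −1.78 (SE 0.35, adjusted p = 0.0478), and that of ob/ob-Veh against WT-Veh was 0.70 (adjusted p = 0.319). The call was lost without any 1 ob/ob-Veh or ob/ob-Rosi library (adjusted p = 0.0603 to 0.394), with thinned cells (−1.40, adjusted p = 0.082), at APC resolution 1 (−2.18, adjusted p = 0.0607) and with all APCs together (−1.27, adjusted p = 0.0737). Without the clusters in which such markers outnumber those of the own class, which removes cluster 5 and with it most ob/ob-Veh cells of the class, the log2 fold change was −0.34 (adjusted p = 0.895).

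By cluster, Esr1 stood at 103 and 101 CPM in the ob/ob-Veh cells of iWAT cluster 5 and at 7.54 CPM in the 23 cells of ob/ob-Rosi replicate 1 there. In cluster 2 WT-Veh gave 76.1 and 87.1 CPM and ob/ob-Rosi 33.5 and 20.8 CPM. In cluster 8 WT-Veh replicate 2 gave 28.9 CPM and ob/ob-Rosi 37.1 and 16.0 CPM, and in cluster 6 WT-Veh replicate 1 gave 46.5 CPM and ob/ob-Rosi 40.7 and 0 CPM. In cluster 9 WT-Veh replicate 2 gave 32.6 CPM and ob/ob-Rosi 18.2 and 13.6 CPM. As read, the ob/ob-Rosi values lay under WT-Veh in 3 of the 4 clusters that held both groups and overlapped it in cluster 8. The 0 CPM in cluster 6 was of 30 cells and the 18.2 CPM in cluster 9 of 33 cells. Both values are too imprecise to be placed under WT-Veh.

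Esr1 was lower in ob/ob-Rosi than in ob/ob-Veh in the other APCs too, without a call in a single class. eWAT preadipocyte-like cells held 8.45 and 16.2 CPM in WT-Veh, 23.0 and 14.2 CPM in ob/ob-Veh, and 9.27 and 6.06 CPM in ob/ob-Rosi (log2 fold change −1.18 for the drug, SE 0.40, adjusted p = 0.0898). eWAT progenitor-like cells held 17.9 and 19.0 CPM, 44.7 and 26.5 CPM, and 19.0 and 16.7 CPM (−0.998, adjusted p = 0.181), and iWAT progenitor-like cells 71.5 and 36.4 CPM, 91.1 and 62.8 CPM, and 43.5 and 30.4 CPM (−0.94, adjusted p = 0.149). With all eWAT APCs pooled, an alternative chosen after seeing the data, the levels were 9.77 and 16.7 CPM, 32.8 and 18.3 CPM, and 10.8 and 6.69 CPM, and the log2 fold change for the drug was −1.56 (SE 0.40, adjusted p = 0.0408).

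**Figure D3:**
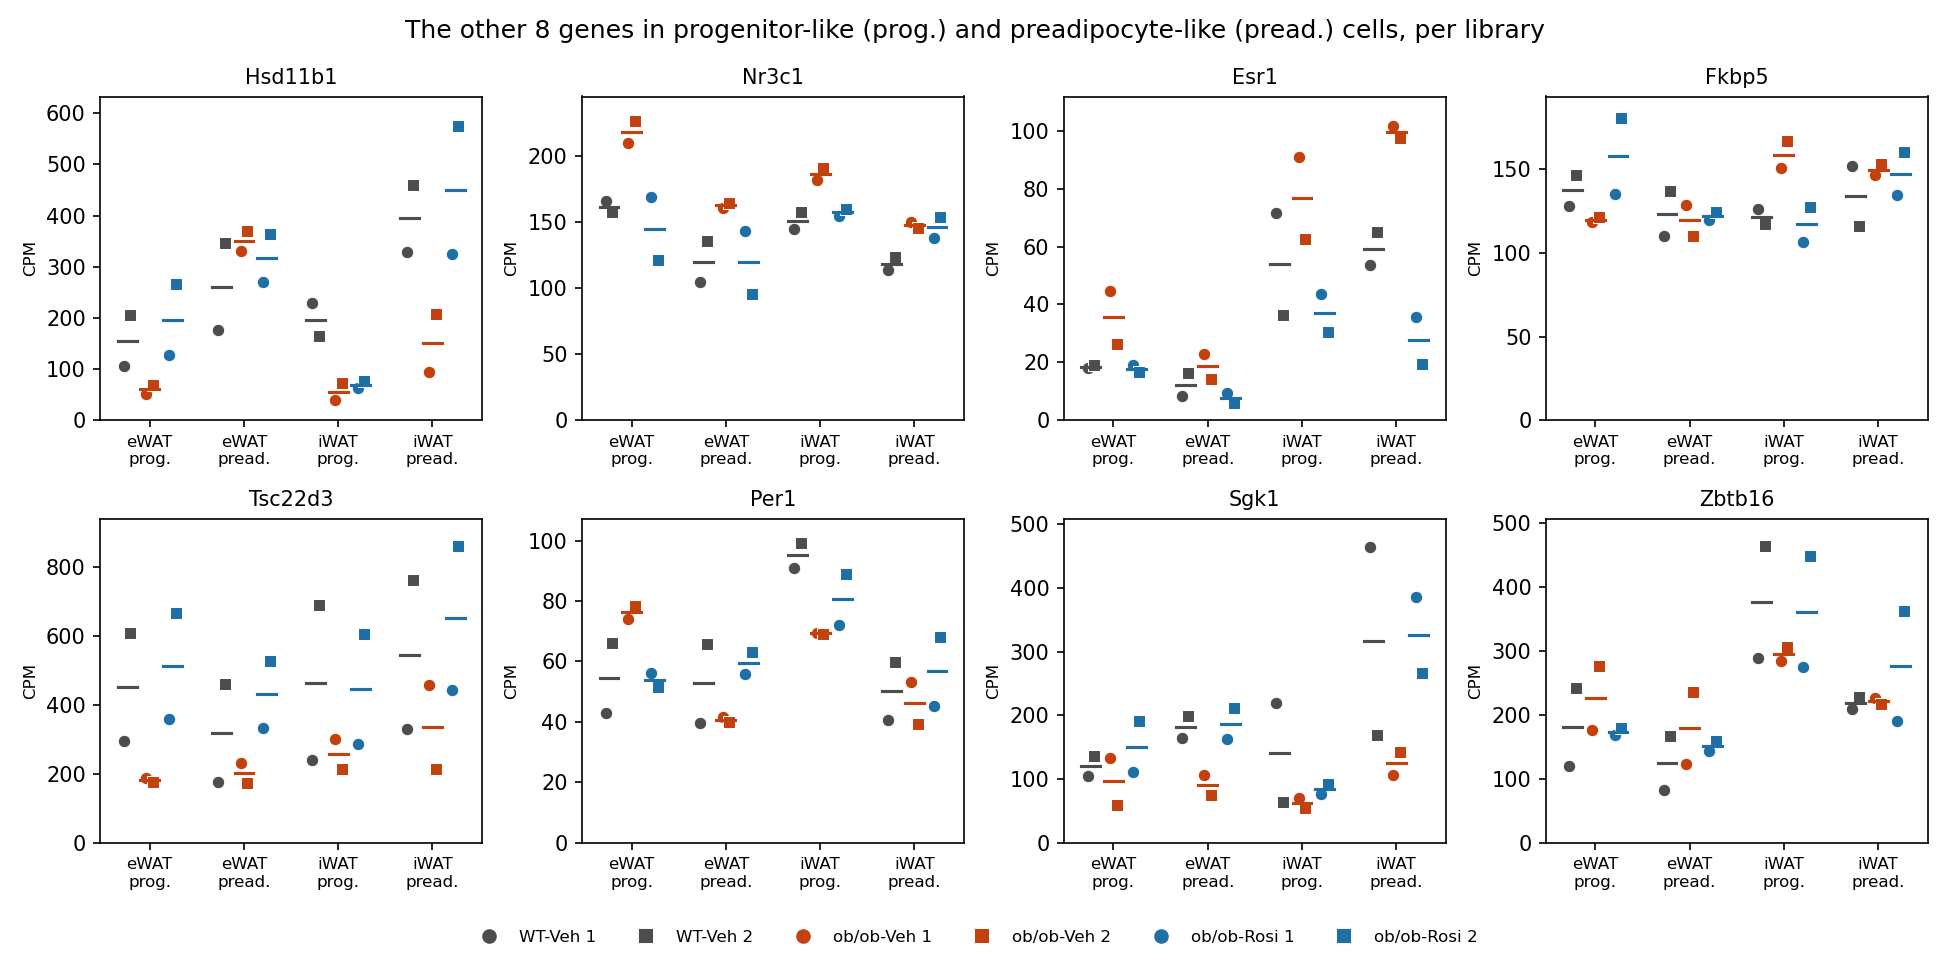
Levels of the other 8 genes in CPM, on linear axes from 0, in progenitor-like and preadipocyte-like cells of both depots by library. Circles are replicate 1, squares replicate 2 and bars group means. Hsd11b1 is highest in preadipocyte-like cells of both depots, and in iWAT progenitor-like cells both WT-Veh points (228 and 165 CPM) lie above the other 4 libraries.

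Fkbp5, the chaperone of the receptor, fell in eWAT EC-like cells of ob/ob-Veh, where it stood at 255 and 267 CPM in WT-Veh, 122 and 127 CPM in ob/ob-Veh, and 184 and 276 CPM in ob/ob-Rosi. Both ob/ob-Veh libraries lay under all others. The log2 fold change of ob/ob-Veh against WT-Veh was −1.16 (SE 0.26, adjusted p = 0.0339), and that of ob/ob-Rosi against ob/ob-Veh was 0.95 (SE 0.26, adjusted p = 0.0699). The call was lost without any 1 WT-Veh or ob/ob-Veh library (adjusted p = 0.112 to 0.207), with thinned cells (adjusted p = 0.0917) and with doublets removed (−1.23, adjusted p = 0.0760).

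The same EC-like cells differed in adipocyte and macrophage genes. The sum over 10 adipocyte genes was 399.6 to 775 CPM in WT-Veh, 2433 to 2912 CPM in ob/ob-Veh and 239 to 288 CPM in ob/ob-Rosi, and the sum over 10 macrophage genes was 5616 to 6808 CPM, 1568 to 2415 CPM and 6763 to 7792 CPM. In eWAT ob/ob-Veh the adipocyte sum was 94.1 to 125 CPM in progenitor-like, 146 to 148 CPM in preadipocyte-like and 131 CPM in PVM-like cells. The source of this RNA and the part of these sums in the Fkbp5 difference were not tested. In iWAT EC-like cells Fkbp5 stood at 271 and 254 CPM, 162 and 190 CPM, and 191 and 232 CPM (log2 fold change −0.86, SE 0.28, adjusted p = 0.149), with adipocyte sums of 354 to 427 CPM, 945 to 1076 CPM and 230 to 243 CPM.

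For Fkbp5 in APCs, eWAT preadipocyte-like cells held 110 and 137 CPM in WT-Veh, 129 and 110 CPM in ob/ob-Veh, and 120 and 124 CPM in ob/ob-Rosi, and the groups overlapped. PVM-like cells were highest in both depots, with medians of 237 CPM in eWAT and 264 CPM in iWAT, and overlapped EC-like cells (219.5 and 211 CPM).

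Tsc22d3, the anti-inflammatory leucine zipper gene, rose with rosiglitazone in eWAT progenitor-like cells. These held 295 and 608 CPM in WT-Veh, 188 and 176 CPM in ob/ob-Veh, and 361 and 668 CPM in ob/ob-Rosi, so that ob/ob-Veh lay under all others, where the dissociation sums of these cells were highest in ob/ob-Veh (their part was not tested). These gave a log2 fold change of 1.51 (SE 0.37, adjusted p = 0.0307) for the drug and −1.30 (SE 0.37, adjusted p = 0.0595) for ob/ob-Veh against WT-Veh. The call was lost without replicate 2 of ob/ob-Veh (1.37, adjusted p = 0.0771), without replicate 2 of ob/ob-Rosi (1.00, adjusted p = 0.220) with all APCs together (1.24, adjusted p = 0.0969), with the 9 genes kept in the clustering (1.17, adjusted p = 0.0869) and at APC resolution 1 (1.25, adjusted p = 0.0607).

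Elsewhere Tsc22d3 differed widely between replicates. eWAT preadipocyte-like cells held 175 and 460 CPM in WT-Veh, 232 and 172 CPM in ob/ob-Veh, and 333 and 528 CPM in ob/ob-Rosi (log2 fold change 1.22 for the drug, adjusted p = 0.0869). eWAT EC-like cells held 133 and 168 CPM, 203 and 158 CPM, and 312 and 394 CPM (1.03, adjusted p = 0.0519). In eWAT PVM-like cells the ob/ob-Veh libraries were both the highest and the lowest of the 6, at 712 and 204 CPM. iWAT preadipocyte-like cells held 330 and 764 CPM in WT-Veh, 459 and 215 CPM in ob/ob-Veh, and 442 and 862 CPM in ob/ob-Rosi, and no contrast was called in iWAT.

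Per1, the clock repressor, had no called change in any class. iWAT progenitor-like cells held 91.1 and 99.2 CPM in WT-Veh, 69.5 and 69.2 CPM in ob/ob-Veh, and 72.0 and 89.1 CPM in ob/ob-Rosi (log2 fold change −0.57 for ob/ob-Veh against WT-Veh, adjusted p = 0.301). In iWAT EC-like cells ob/ob-Veh stood at 50.1 and 66.3 CPM, under WT-Veh at 96.3 and 78.9 CPM and ob/ob-Rosi at 88.4 and 114 CPM (log2 fold changes −0.83, adjusted p = 0.179, and 1.03, adjusted p = 0.135). PVM-like cells were highest, with a median of 96.0 CPM in eWAT and 121 CPM in iWAT, and overlapped the next class in both depots. Labels give no time of day for the collections, so time cannot be told apart from the groups for this gene.

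Sgk1, the kinase whose promoter holds the element shown above, was highest in EC-like cells, with a median of 529 CPM in eWAT and 607 CPM in iWAT against 163 and 218 CPM in preadipocyte-like cells, the next class, which they overlapped in iWAT alone. In eWAT preadipocyte-like cells it fell in ob/ob-Veh and rose with rosiglitazone. The levels were 165 and 199 CPM in WT-Veh, 105 and 75.2 CPM in ob/ob-Veh, and 162 and 212 CPM in ob/ob-Rosi, with ob/ob-Veh under all others. These gave a log2 fold change of −1.14 (SE 0.29, adjusted p = 0.0325) for ob/ob-Veh against WT-Veh and 1.18 (SE 0.29, adjusted p = 0.0281) for ob/ob-Rosi against ob/ob-Veh.

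Both Sgk1 calls depended on the between cluster staying out of the class. Its ob/ob-Veh cells held 197 and 132 CPM, against 109 and 84.7 CPM in preadipocyte-like cluster 4 and 89.5 and 51.3 CPM in cluster 5. With all eWAT APCs together the log2 fold changes were −0.59 (adjusted p = 0.350) and 0.66 (adjusted p = 0.279), and with each APC cluster given the name of its higher list whatever the margin they were −0.57 (adjusted p = 0.304) and 0.63 (adjusted p = 0.253). Neither call was made at Leiden resolution 0.5 or 2, at APC resolution 1 or with the 9 genes kept in the clustering (−0.25 to −0.48, adjusted p = 0.422 to 0.735, and 0.25 to 0.53, adjusted p = 0.360 to 0.723). The first call was also lost without any 1 WT-Veh or ob/ob-Veh library (adjusted p = 0.0763 to 0.332) and with thinned cells (adjusted p = 0.0589), and the other without ob/ob-Veh replicate 1 (adjusted p = 0.0682), ob/ob-Veh replicate 2 (0.308) or replicate 2 of ob/ob-Rosi (0.131).

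The clusters of WT-Veh and ob/ob-Rosi also differed in Sgk1. Cluster 0 held 120 and 117 CPM in WT-Veh and 118 and 162 CPM in ob/ob-Rosi, cluster 1 held 221 and 252 CPM and 219.6 and 284 CPM, and cluster 3 held 74.3 and 188 CPM and 136 and 197 CPM. The dissociation sum was 2333 to 3757 CPM in cluster 0 and 17004 to 21978 CPM in cluster 1. Its part in the Sgk1 levels was not tested.

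In iWAT preadipocyte-like cells WT-Veh held 464 and 169 CPM of Sgk1, ob/ob-Veh 106 and 143 CPM, and ob/ob-Rosi 385 and 266 CPM. The ob/ob-Veh libraries lay under the others, but the WT-Veh mice lay far from each other, and the log2 fold changes of −1.37 (SE 0.46, adjusted p = 0.171) and 1.46 (SE 0.46, adjusted p = 0.117) were not called. The same order was found in eWAT PVM-like cells, with 94.9 and 91.2 CPM, 70.0 and 43.4 CPM, and 87.1 and 79.9 CPM (log2 fold changes −0.82, adjusted p = 0.113, and 0.68, adjusted p = 0.172).

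Zbtb16, the zinc finger factor, was highest in progenitor-like cells, with a median of 178 CPM in eWAT and 297 CPM in iWAT, overlapping the next class in each. eWAT progenitor-like cells held 120 and 242 CPM in WT-Veh, 176 and 276 CPM in ob/ob-Veh, and 167 and 179 CPM in ob/ob-Rosi, and the groups overlapped. In iWAT EC-like cells ob/ob-Veh stood at 192 and 289 CPM over WT-Veh at 88.5 and 136 CPM (log2 fold change 0.83, adjusted p = 0.222). No contrast was called.

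**Figure D4:**
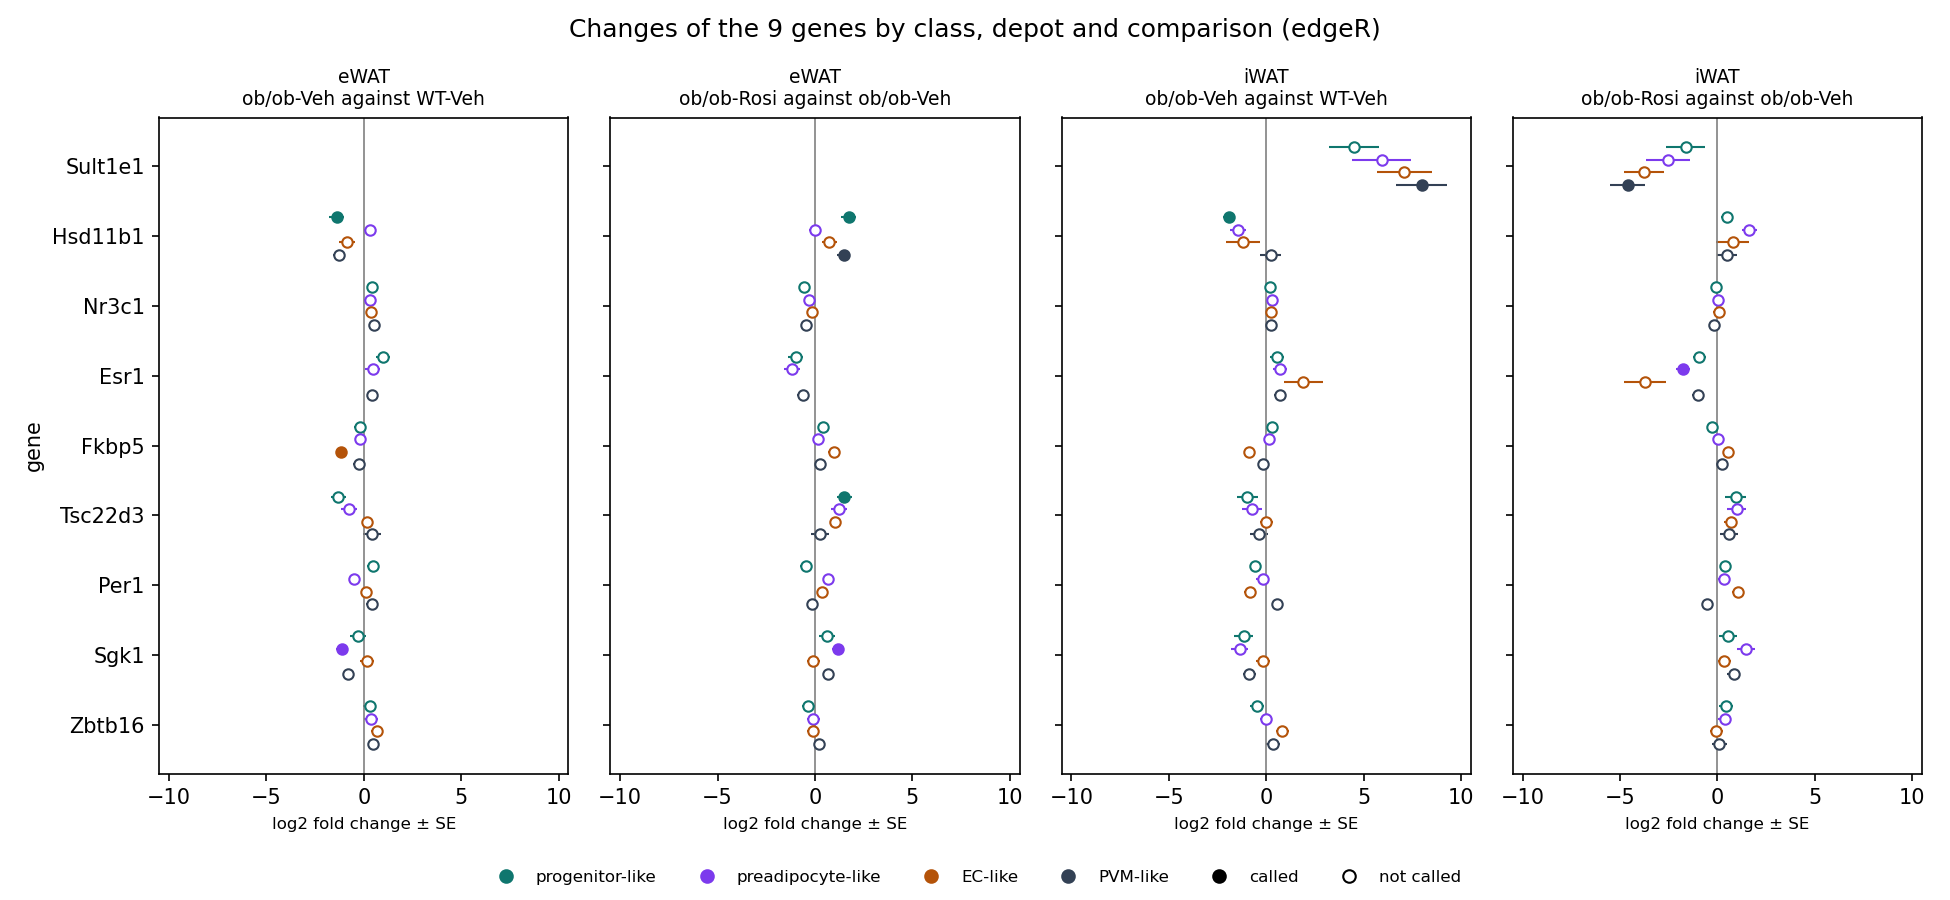
Log2 fold changes with SE from edgeR for the 9 genes by class and depot, for ob/ob-Veh against WT-Veh and ob/ob-Rosi against ob/ob-Veh, Sult1e1 in eWAT left out. Filled points are called. The fitted Sult1e1 changes in iWAT reach 7.97, and the called changes are Hsd11b1 in progenitor-like cells of both depots and eWAT PVM-like cells, Fkbp5 in eWAT EC-like cells, Tsc22d3 in eWAT progenitor-like cells, Sgk1 in eWAT preadipocyte-like cells, Esr1 in iWAT preadipocyte-like cells and Sult1e1 in iWAT PVM-like cells.

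The calls were counted over the 4 classes. In eWAT, where Esr1 in EC-like cells was under the filter on low counts, 3 of 31 tests (9.68%) were called for ob/ob-Veh against WT-Veh, all lower (Hsd11b1, Sgk1 and Fkbp5), where 5.56% of all gene-by-class tests were called. For ob/ob-Rosi against ob/ob-Veh it was 4 of 31 (12.9%), all higher (Hsd11b1 in 2 classes, Tsc22d3 and Sgk1), against 5.39% of all. For ob/ob-Rosi against WT-Veh edgeR called 0 of 31, against 0.0652% of all, with 2 at an unadjusted p under 0.05 and 1 called by DESeq2. In iWAT, 2 of 36 (5.56%) were called for ob/ob-Veh against WT-Veh (Hsd11b1 lower, Sult1e1 higher), against 1.81% of all, and 2 of 36 for ob/ob-Rosi against ob/ob-Veh (Esr1 and Sult1e1, both lower), against 3.76% of all. For ob/ob-Rosi against WT-Veh edgeR called 0 of 36, against 0.0% of all, with 5 at an unadjusted p under 0.05 and 1 called by DESeq2. The 9 genes were picked with earlier results of these data known and a depot's contrasts share libraries, so nothing about them as a set was read from these counts. Without Sult1e1 in iWAT PVM-like and EC-like cells, which passed the filter only with ob/ob-Veh, 1 of 34 tests (2.94%) was called in iWAT in each of the first and second contrast. With a block for the replicate number the counts of these contrasts were 6 and 8 in eWAT, against 13.6 and 13.4% of all tests, and 6 and 7 in iWAT, against 5.86 and 11.4%.

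Whether the depots differed was tested in preadipocyte-like cells with a depot by group term, for the 8 genes other than Sult1e1. edgeR called 0 of 8 for ob/ob-Veh against WT-Veh, against 0.324% of all genes, and 0 of 8 for ob/ob-Rosi against ob/ob-Veh, against 0.278% of all, and DESeq2 called 0 in both. In each, 1 gene was at an unadjusted p under 0.05, Hsd11b1. Its iWAT effect minus its eWAT effect was −1.75 (SE 0.55, adjusted p = 0.274) and 1.68 (SE 0.55, adjusted p = 0.309). No called change in 1 depot was shown to be particular to it, and the depot difference was not tested outside preadipocyte-like cells.

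The pathway around these genes was read from lists, with Sult1e1 left out in eWAT. How calls of the other list genes fared without 1 library is not given. Of the steroid enzymes and sulfation genes tested, 2 of 13 rose and 1 fell in eWAT preadipocyte-like cells for ob/ob-Veh against WT-Veh, where 8.77% of all genes were called. Papss2, which makes the sulfate donor that SULT1E1 uses, stood at 24.6 and 26.2 CPM in WT-Veh, 64.8 and 61.5 CPM in ob/ob-Veh, and 29.7 and 31.9 CPM in ob/ob-Rosi. It rose in ob/ob-Veh (log2 fold change 1.17, SE 0.24, adjusted p = 0.0129) and fell in ob/ob-Rosi (−0.90, SE 0.24, adjusted p = 0.0381). With all eWAT APCs together both Papss2 calls held (1.27, adjusted p = 0.0102, and −1.01, adjusted p = 0.0257). In iWAT preadipocyte-like cells Papss2 stood at 78.5 and 98.3 CPM, 61.7 and 79.7 CPM, and 40.3 and 66.0 CPM, and no difference was called (−0.38, adjusted p = 0.530, and −0.35, adjusted p = 0.507). In iWAT progenitor-like cells the log2 fold change for ob/ob-Veh against WT-Veh was −0.28 (adjusted p = 0.629).

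Srd5a1, a steroid reductase, followed the same course in eWAT preadipocyte-like cells, from 1.73 and 1.64 CPM in WT-Veh to 7.84 and 7.19 CPM in ob/ob-Veh and 2.70 and 1.41 CPM in ob/ob-Rosi. It rose in ob/ob-Veh (2.01, SE 0.49, adjusted p = 0.0279) and fell in ob/ob-Rosi (−1.79, SE 0.47, adjusted p = 0.0370), and with all eWAT APCs together both calls held (2.10, adjusted p = 0.0273, and −1.84, adjusted p = 0.0363). Papss2 and Srd5a1 were the 2 of 13 called for the drug, against 9.37% of all genes. Hsd11b2, the enzyme that inactivates glucocorticoid, fell in ob/ob-Veh, from 3.26 and 7.74 CPM to 1.69 and 0.513 CPM (−2.46, SE 0.66, adjusted p = 0.0418), with 2.19 and 3.43 CPM in ob/ob-Rosi (1.53, adjusted p = 0.182). With the eWAT APCs pooled, the fall in ob/ob-Veh was also called (−2.78, adjusted p = 0.0218). All these Hsd11b2 and Srd5a1 levels are low, so few UMIs carry the changes.

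In eWAT progenitor-like cells Hsd11b1 was the single enzyme called of 11, both for ob/ob-Veh against WT-Veh, against 5.1% of all genes, and for ob/ob-Rosi against ob/ob-Veh, against 4.73% of all. Papss2 there stood at 24.8 and 37.9 CPM, 57.0 and 66.9 CPM, and 39.6 and 36.1 CPM (0.93 for ob/ob-Veh against WT-Veh, adjusted p = 0.0750).

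In iWAT progenitor-like cells Hsd11b1 was the single enzyme called of 14 for ob/ob-Veh against WT-Veh, against 1.2% of all genes. Srd5a1 stood there at 2.80 and 1.64 CPM in WT-Veh, 18.4 and 8.70 CPM in ob/ob-Veh, and 1.45 and 1.75 CPM in ob/ob-Rosi. It fell with the drug (−2.93, SE 0.49, adjusted p = 0.0187), 1 of 14 against 3.15% of all genes, and its difference of 2.80 between ob/ob-Veh and WT-Veh was not called (adjusted p = 0.0549). With all iWAT APCs together the fall with the drug was −2.87 (adjusted p = 0.0453). Srd5a1 levels are low here too, so few UMIs carry the change.

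In iWAT preadipocyte-like cells edgeR called 0 of 14 enzymes for ob/ob-Veh against WT-Veh, against 0.293% of all genes, with 7 at an unadjusted p under 0.05 and 4 called by DESeq2. It called 0 of 14 for the drug, against 1.35% of all, with 3 at an unadjusted p under 0.05 and 2 called by DESeq2. The shares of all genes in this class at such a p or called by DESeq2 are not given. Nothing about the enzymes is read from these counts. Hsd11b2 stood there at 1.31 and 37.4 CPM in WT-Veh, 5.80 and 4.41 CPM in ob/ob-Veh, and 9.48 and 12.9 CPM in ob/ob-Rosi (−2.25, adjusted p = 0.194), with the WT-Veh mice far from each other. The medians over the enzyme list lay between −0.35 and 0.19 on the log2 scale in these classes and contrasts, and the medians of all genes between −0.03 and 0.02.

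Of 7 steroid receptors, 3 or 4 passed the filter in a class. Esr1 was the single receptor that edgeR called in APCs, 1 of 4 for the drug in iWAT preadipocyte-like cells, against 1.35% of all genes, and DESeq2 also called 1 of 4 in eWAT preadipocyte-like cells in each of the 2 contrasts. The share of all genes of that class called by DESeq2 is not given, so nothing is read from its calls. Among chaperones and coregulators, Ncoa1, a coactivator of steroid receptors, was called in eWAT preadipocyte-like cells, at 29.9 and 51.0 CPM in WT-Veh, 95.9 and 109 CPM in ob/ob-Veh, and 47.2 and 35.9 CPM in ob/ob-Rosi (log2 fold changes 1.20, SE 0.28, adjusted p = 0.0241, and −1.16, SE 0.28, adjusted p = 0.0263), 1 of 13 genes (7.69%) in each, against 8.77 and 9.37% of all genes. Pooling all eWAT APCs left neither called (0.99, adjusted p = 0.0583, and −0.99, adjusted p = 0.0563). Ncoa3, another coactivator, fell with the drug in iWAT progenitor-like cells, from 57.5 and 63.2 CPM in ob/ob-Veh to 24.7 and 25.2 CPM in ob/ob-Rosi (−1.12, SE 0.24, adjusted p = 0.0436), 1 of 13 against 3.15% of all genes. With the iWAT APCs pooled it was not called (−0.93, adjusted p = 0.0719).

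Up to 5 of the wider glucocorticoid targets were called in an eWAT APC class. In progenitor-like cells of ob/ob-Veh, 3 of 18 rose (Dusp1, Nfkbia and Bcl6) and 1 fell (Klf15), 22.2% against 5.1% of all genes. In preadipocyte-like cells, 1 of 19 rose (Bcl6) and 3 fell (the metallothioneins Mt1 and Mt2, and Sgk1), 21.1% against 8.77%. For ob/ob-Rosi against ob/ob-Veh, 1 of 18 rose in progenitor-like cells (Tsc22d3) and 4 fell (Dusp1, Nfkbia, Cebpd and Mt2), 27.8% against 4.73% of all genes. In preadipocyte-like cells 3 of 19 rose (Mt1, Mt2 and Sgk1) and 1 fell (Bcl6), 21.1% against 9.37%. Bcl6, a transcriptional repressor, was thus higher in ob/ob-Veh than in WT-Veh in both classes (1.33 and 1.39), and no difference between the classes was tested. Nfkbia, Bcl6, Klf15 and Cebpd are named after their values were seen. With the eWAT APCs pooled, the rise of Bcl6 in ob/ob-Veh (1.27, adjusted p = 0.0155) and the fall of Cebpd with the drug (−1.29, adjusted p = 0.0206) were called. The fall of Bcl6 with the drug (−0.74, adjusted p = 0.111), both calls of Nfkbia (0.69, adjusted p = 0.258, and −0.88, adjusted p = 0.145) and that of Klf15 (−0.24, adjusted p = 0.790) were lost there.

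Dusp1, a phosphatase of stress kinases, stood in eWAT progenitor-like cells at 302 and 318 CPM in WT-Veh, 1721 and 984 CPM in ob/ob-Veh, and 533 and 353 CPM in ob/ob-Rosi (2.14, SE 0.36, adjusted p = 0.00297, and −1.61, SE 0.35, adjusted p = 0.0152). In preadipocyte-like cells it stood at 341 and 436 CPM, 473 and 524 CPM, and 573 and 463 CPM (0.22, adjusted p = 0.614). With the eWAT APCs pooled, the rise in ob/ob-Veh was called (1.62, adjusted p = 0.0146) and the fall with the drug was not (−1.18, adjusted p = 0.0528). Dusp1 and Nfkbia also answer to stress and inflammatory signals. The dissociation sums given above moved with Dusp1, high in progenitor-like and, without the between cluster, not in preadipocyte-like cells of ob/ob-Veh. Their part was not tested.

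The metallothioneins, which bind zinc and copper, fell in eWAT preadipocyte-like cells of ob/ob-Veh. Mt1 went from 4035 and 2275 CPM in WT-Veh to 879 and 925 CPM in ob/ob-Veh and 2817 and 2907 CPM in ob/ob-Rosi (−1.97, SE 0.31, adjusted p = 0.00306, and 1.81, SE 0.30, adjusted p = 0.00447). Mt2 went from 1323 and 532 CPM to 229 and 209 CPM and 768 and 512 CPM (−2.25, SE 0.42, adjusted p = 0.00821, and 1.68, SE 0.41, adjusted p = 0.0294). In progenitor-like cells Mt2 instead stood at 1056 and 549 CPM, 2023 and 1077 CPM, and 368 and 454 CPM (0.96, adjusted p = 0.210, and −1.92, SE 0.40, adjusted p = 0.0127). Pooling all eWAT APCs left none of the 4 metallothionein contrasts called (Mt1 −0.25, adjusted p = 0.744, and 0.07, adjusted p = 0.933, Mt2 0.18, adjusted p = 0.871, and −0.82, adjusted p = 0.375), so these calls rest on the division of APCs. In preadipocyte-like cells, with the between cluster left out, the dissociation sums, too, were lower in ob/ob-Veh than in WT-Veh. Their part was not tested.

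In iWAT, edgeR called 0 of 19 targets for ob/ob-Veh against WT-Veh in progenitor-like cells (5 at an unadjusted p under 0.05, 0 called by DESeq2), against 1.2% of all genes, and 0 of 19 in preadipocyte-like cells (3 and 2), against 0.293%. For the drug 1 of 19 (5.26%) was called in progenitor-like cells, against 3.15% of all genes. This was Pdk4, a kinase that limits glucose oxidation, which stood at 26.6 and 26.8 CPM in WT-Veh, 42.1 and 36.5 CPM in ob/ob-Veh, and 7.43 and 13.7 CPM in ob/ob-Rosi (−1.72, SE 0.33, adjusted p = 0.0318). Pooling all iWAT APCs left it without a call (−1.38, adjusted p = 0.0650). In preadipocyte-like cells edgeR called 0 of 19 for the drug, against 1.35% of all genes, with 5 at an unadjusted p under 0.05 and 2 called by DESeq2. For the unadjusted and DESeq2 counts of these iWAT classes the shares of all genes are not given, so nothing about the targets is read from them.

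Of the clock genes around Per1, the repressor Bhlhe40 was the single call in APCs. In eWAT progenitor-like cells it stood at 44.2 and 40.1 CPM in WT-Veh, 126 and 174 CPM in ob/ob-Veh, and 41.3 and 45.8 CPM in ob/ob-Rosi (1.82, SE 0.29, adjusted p = 0.00232, and −1.75, SE 0.29, adjusted p = 0.00282), 1 of 14 genes (7.14%) against 5.1 and 4.73% of all. In preadipocyte-like cells it was lower in ob/ob-Veh, at 60.5 and 42.8 CPM, 15.2 and 27.9 CPM, and 57.5 and 47.3 CPM (−1.43, SE 0.32, adjusted p = 0.0189, and 1.43, SE 0.32, adjusted p = 0.0177), 1 of 15 genes (6.67%) against 8.77 and 9.37% of all. The difference between the classes was not tested. The dissociation sums given above were, like Bhlhe40, higher in progenitor-like and lower in preadipocyte-like cells of ob/ob-Veh than of WT-Veh. The lower sums depended on leaving out the between cluster, and the part of these sums was not tested. Pooling all eWAT APCs left neither contrast called (0.68, adjusted p = 0.174, and −0.69, adjusted p = 0.162).

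**Figure D5:**
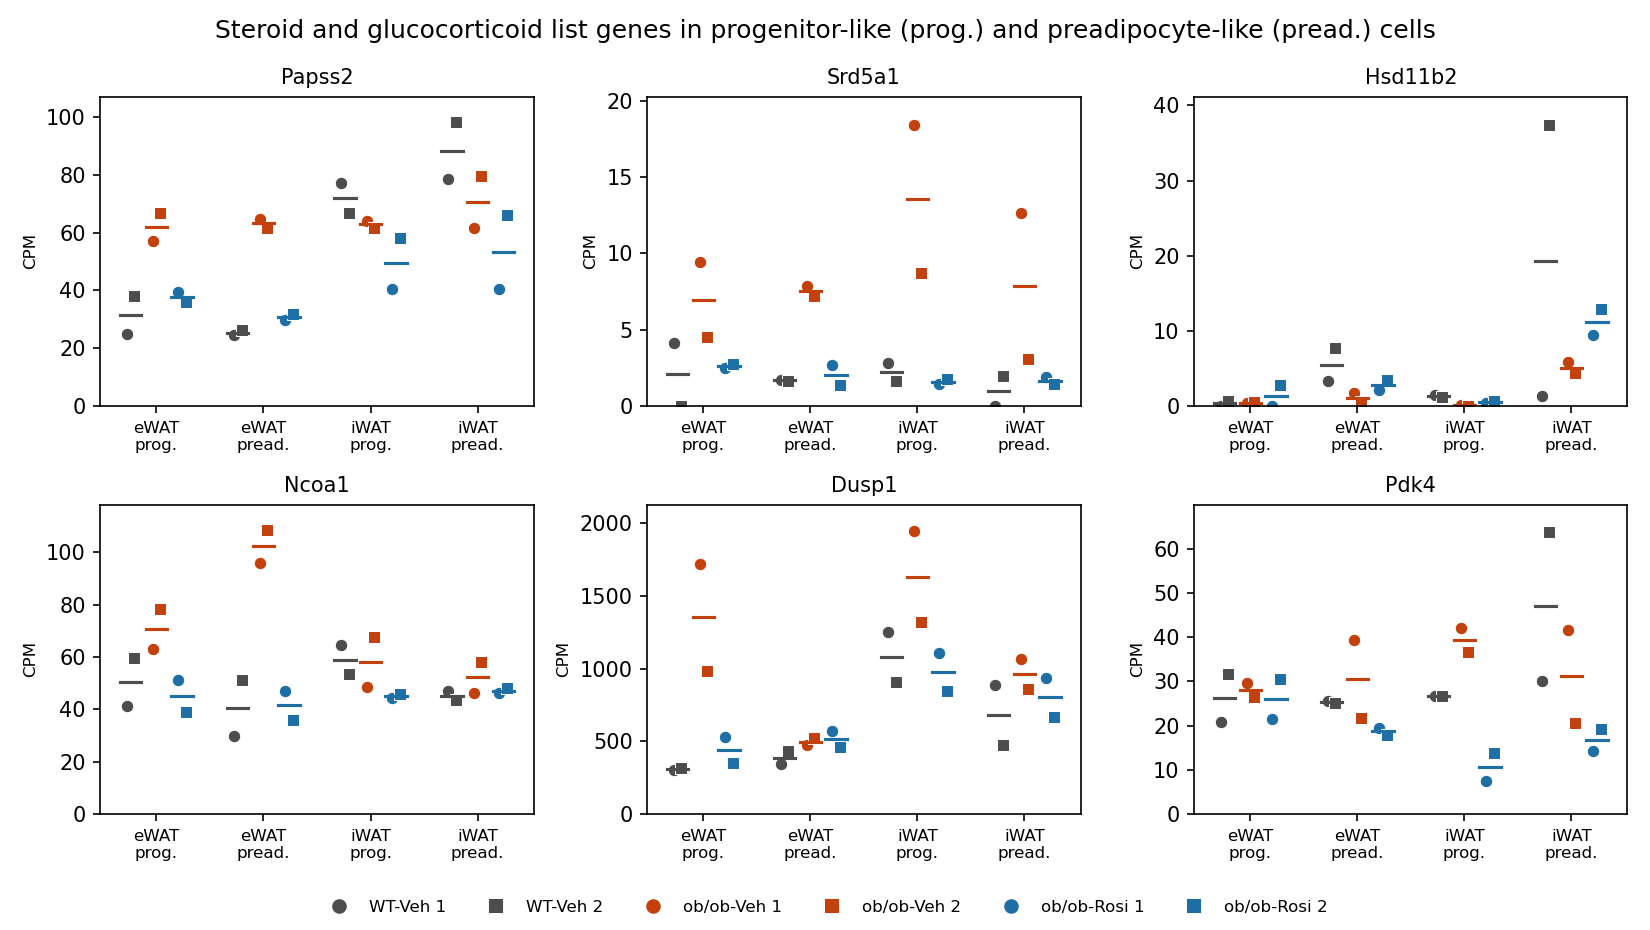
Papss2, Srd5a1, Hsd11b2, Ncoa1, Dusp1 and Pdk4 in CPM, on linear axes from 0, in progenitor-like and preadipocyte-like cells of both depots by library. Circles are replicate 1, squares replicate 2 and bars group means. In eWAT preadipocyte-like cells both ob/ob-Veh points of Papss2 (64.8 and 61.5 CPM) lie above the other 4 libraries.

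The genes most like Sult1e1 were ranked by Pearson's r of log2(CPM + 1) over 122 library-by-class sums of both depots, among 12772 genes. The first were Col6a6, a collagen chain (r = 0.760), 9330159F19Rik (0.749), Maob, a monoamine oxidase (0.748), C7, a complement component (0.736), and Sox9, a transcription factor (0.720). Mean levels in eWAT preadipocyte-like cells, in the same order of groups as above, were 13.8, 189 and 18.9 CPM for Sox9. For Maob they were 7.89, 80.6 and 9.88 CPM, for C7 53.0, 294 and 39.2 CPM, and for Col6a6 100.0, 350.0 and 122 CPM. In the other 3 APC classes of both depots, which also entered the ranking, the order mostly followed from that choice, with ob/ob-Veh highest in 13 of 15 sets of gene and class, and nothing was read from it. In the other sets C7 was lowest in ob/ob-Veh in eWAT progenitor-like cells (123, 28.7 and 106 CPM), and Sox9 was highest in WT-Veh in iWAT progenitor-like cells (6.30, 5.16 and 3.43 CPM). The sums share libraries, depth and the RNA of neighbouring cells, so r is a description. Of the other 8 genes, Esr1 (r = 0.427) and Nr3c1 (0.367) were the most like Sult1e1, and Fkbp5 (−0.195) the least.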

How the data were processed

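The authors deposited UMI counts per gene and cell from 10x 3′ libraries, made with Cell Ranger 3.0.2 and bcl2fastq 2.19.1.403 on mm10 per the labels. Cells with 700 to 22000 UMIs, 200 to 6000 genes and under 25% mitochondrial UMIs were kept. In scanpy 1.11.5, 2000 variable genes without the 9 genes, 25 components (15 for APCs) and 20 neighbours gave a shared-neighbour graph, clustered by Leiden at resolution 1 (0.6 for APCs). Clusters were named from at least 3 markers detected in 20% of cells, and APC clusters by the list with the higher mean log2(CPM + 1), with a margin of 0.5. Sub-clusters with 8 or more macrophage genes at 2-fold stayed unnamed. The graph and the APC rule were set after clusters and earlier results were seen, in place of a weighted graph and a relative rule whose names changed with numerical rounding. In that earlier version Hsd11b1, Sgk1 and Tsc22d3 were not called in eWAT APCs. Doublets were removed only in an alternative. Scrublet's own threshold marked 1.85 to 5.04% of cells, but 31.4% in iWAT WT-Veh replicate 1 and 0.124% in eWAT WT-Veh replicate 2, where the highest scores up to the expected rate (5.28%) were taken instead.

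Counts were summed per library and class of at least 20 cells and tested with edgeR 4.0.16 (TMM, filterByExpr, quasi-likelihood, R 4.3.3), 1 fit per depot and class over 6 libraries with 3 residual degrees of freedom and no replicate block. DESeq2 1.42.0 was an alternative. CPM is per 1000000 UMIs of the class, and log2 differences without a test use log2(CPM + 1). Shares have 95% Clopper-Pearson intervals, and a count of 0 allows up to 3 UMIs. The script was tested on simulated data. Named are the 9 genes, up to 3 called APC genes per list and depot, the 5 genes most like Sult1e1 and, outside this rule, 4 glucocorticoid targets chosen after their values were seen. The 9 genes, lists and tests were chosen with earlier results of these data known.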

Additional observations from a re-analysis of the deposited data

Results flagged for a closer look

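Fkbp5 and Per1 differed between groups in opposite directions in the depots, without overlap between the libraries of the groups compared. In each case the difference between depots was not tested. Fkbp5 in progenitor-like cells differed by 0.38 in eWAT and −0.44 in iWAT on the log2(CPM + 1) scale for ob/ob-Rosi minus ob/ob-Veh, and by −0.19 and 0.38 for ob/ob-Veh minus WT-Veh. Per1 in progenitor-like cells differed by 0.51 in eWAT and −0.45 in iWAT for ob/ob-Veh minus WT-Veh, and by −0.50 and 0.21 for ob/ob-Rosi minus ob/ob-Veh. Per1 in EC-like cells differed by 0.21 and −0.59 for ob/ob-Veh minus WT-Veh. None of these differences within a depot was called by edgeR. These cases were picked for this pattern. How often other genes show it was not counted, so nothing about the depots is read from them.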

How the results depend on the processing

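Counts of calls among the 9 genes are given in the order mutation (ob/ob-Veh against WT-Veh), drug (ob/ob-Rosi against ob/ob-Veh), then treated mutant (ob/ob-Rosi against WT-Veh). They were 3, 4 and 0 in eWAT and 2, 2 and 0 in iWAT. With no filter on low counts they were 6, 8 and 1 in eWAT, against 7.39, 7.37 and 0.403% of all tests, and 9, 13 and 5 in iWAT, against 7.21, 9.05 and 1.18%. DESeq2 gave 4, 7 and 1 in eWAT, against 7.01, 7.02 and 0.35% of all tests, and 6, 5 and 1 in iWAT, against 6.09, 8.73 and 0.579%. Cells thinned to 700 UMIs moved the mutation count in eWAT to 1, Leiden resolution 2 moved the mutation and drug counts in eWAT to 1 and 2, and keeping the 9 genes among the variable genes moved both to 1. Among alternatives chosen after seeing the data, APC resolution 1 moved both to 1 and the iWAT drug count to 1, and leaving out clusters led by genes of another class also gave 1 there. Of all tests, 4.64 to 5.8% were called in eWAT in these cases and 3.09 and 3.18% in iWAT. Leaving out 1 library gave 0 to 5, 0 to 6 and 0 in eWAT and 0 to 5, 0 to 8 and 0 to 2 in iWAT, where 1.93 to 9.22, 2.14 to 12.1 and 0.00213 to 0.18% of all tests were called in eWAT and 0.132 to 9.78, 0.00573 to 12.6 and 0.0 to 1.09% in iWAT. Counts not given for one of these settings lay within 1.5 times those of the main analysis. The cause of these changes was not tested.

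A block for the replicate number, which pairs no samples in the labels, gave 6, 8 and 1 in eWAT, against 13.6, 13.4 and 0.67% of all tests, and 6, 7 and 0 in iWAT, against 5.86, 11.4 and 0.0365%. The correlation of same-numbered deviations was 0.165 to 0.335 in eWAT, over 0.1 for every pair of groups in every class, and −0.0291 to 0.601 in iWAT. The calls gained in eWAT with the block were, for the mutation, Hsd11b1 and Sgk1 in PVM-like and Tsc22d3 in progenitor-like cells. For the drug they were Esr1 and Tsc22d3 in preadipocyte-like and Fkbp5 and Tsc22d3 in EC-like cells, and for the treated mutant Tsc22d3 in EC-like cells. In iWAT they were, for the mutation, Hsd11b1 in preadipocyte-like and Sult1e1 in EC-like and both APC classes. For the drug they were Esr1 in PVM-like and progenitor-like cells and Hsd11b1, Sgk1 and Sult1e1 in preadipocyte-like cells. The calls made without the block were all made with it.

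Sult1e1 in iWAT preadipocyte-like cells (5.92, adjusted p = 0.112) was called by DESeq2 (5.92, adjusted p = 0.0301), with no filter on low counts (5.88, adjusted p = 4.8e-33) and with the replicate block (5.60, adjusted p = 0.00756), and stood at 5.57 to 6.26 without 1 library. The p without the filter is from a fit over every gene with a UMI. With 2 mice in a group it is not read as a measure of the spread between mice. The Sult1e1 difference in eWAT (6.11) was 5.18 with all APCs together and 5.47 to 6.74 without 1 library. The depot difference, with 0 genes called, had 1 (Hsd11b1) with no filter on low counts in both contrasts and 0 without any 1 library. Hsd11b1 in eWAT PVM-like cells for ob/ob-Rosi against ob/ob-Veh was −0.037 at Leiden resolution 2. Among the calls of the genes followed across the cell classes, this was the single change of direction. Genes named from the lists also changed direction between eWAT preadipocyte-like cells and all eWAT APCs together. For the mutation and the drug, Mt2 went from −2.25 and 1.68 to 0.18 and −0.82. Bhlhe40 went from −1.43 and 1.43 to 0.68 and −0.69.

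Some calls in eWAT APCs changed with the naming of clusters. Hsd11b1 in progenitor-like cells kept neither call with the 9 genes kept among the variable genes (−0.49, adjusted p = 0.384, and 0.10, adjusted p = 0.932) or with clusters named relative to each other (−0.19, adjusted p = 0.851, and 0.51, adjusted p = 0.574), and Sgk1 in preadipocyte-like cells kept neither at Leiden resolution 0.5 (−0.48, adjusted p = 0.422, and 0.53, adjusted p = 0.360). With 2 mice per group and 3 residual degrees of freedom, each of the 11 calls among the 9 genes was lost without at least 1 library.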
